A study of Mus musculus with 10 samples.

Results

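The genes described here are 8 genes of the mouse MHC class I pathway: H2-K1, H2-D1, B2m, Tap1, Tapbp, Psmb8, Psmb9 and Psmb10. They were read from the probe sets of the array whose annotation holds exactly 1 of these symbols, which gave 24 probe sets of 22626 other than controls and all 8 genes of 12393. Optic nerve heads came from male C57Bl/6 mice aged 6 to 8 weeks, and the labels name no transgene or mutation in either group. In the high IOP group the right eye had been held at 30 mmHg for 1 h through a glass micropipette in the anterior chamber, fed with sterile saline, and the tissue was collected on day 3. In the control group it came from the unoperated left eye of the same mice, so side, cannulation and pressure cannot be told apart. Each array held RNA pooled from 2 nerve heads, with 5 arrays of high IOP and 5 of control tissue from 10 mice in all, and the p-values measure the spread between these pools.

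MHC class I molecules show short peptides from inside the cell to CD8 T cells and natural killer cells. Peptides are cut by the proteasome, which under interferon exchanges its catalytic subunits for those encoded by Psmb8, Psmb9 and Psmb10. They are pumped into the endoplasmic reticulum by the transporter of which Tap1 is a subunit and loaded with the help of tapasin, the product of Tapbp, onto a heavy chain (H2-K1 or H2-D1) paired with beta-2 microglobulin (B2m). In nervous tissue these genes are known as interferon-responsive, with microglia and endothelium as common sites of expression.

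None of the 8 genes differed between high IOP and control nerve heads by limma. At an adjusted p under 0.05 the test called 0 of 8 genes, where 0% of all genes were called, and at an unadjusted p under 0.05 also 0 of 8, against 3.99% of all genes, 1.34% being lower in high IOP tissue. That unadjusted count was 1 of 8 in 2 of 25 alternatives, with Tap1 when high IOP replicate 1 was left out and B2m under a trended robust variance. All 8 log2 fold changes (high IOP minus control, on the scale log2(signal + 16)) were below 0, and so were those of 52.7% of all genes. They ran from -0.22 for Tap1 to -0.05 for Tapbp with a median of -0.12, against a median of -0.01 over all genes. In each of the 8 genes the arrays of both groups overlapped, where 0.629% of all genes did not. On the brightest probe set of each gene the 95% confidence interval lay inside 1.5-fold, up or down, for 7 of the 8 genes, Tap1 being the exception, and inside 2-fold for all 8. The intervals of some dimmer probe sets were wider, reaching -0.96 for H2-K1 and -0.65 for the H2-D1 probe set 1426324_at. Fewer cells of a type and less RNA per cell cannot be told apart in pooled tissue.

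**Figure D1:**
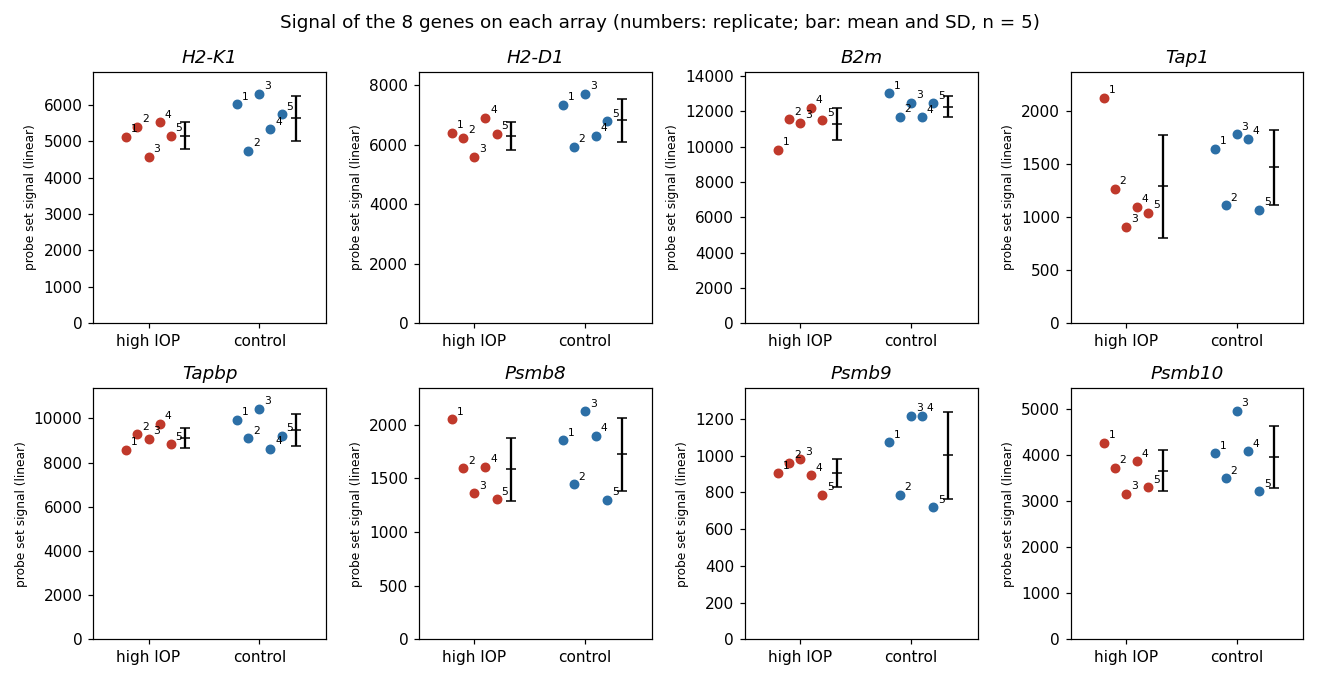
Signal of the brightest probe set of each of the 8 genes (linear scale, from 0) on the 5 high IOP and 5 control arrays. Points are arrays with their replicate number, and bars give the mean and SD; the groups overlap for every gene, and Tap1 has the widest span, 2.34-fold over the 10 arrays.

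The median probe set signal was 414 to 475 over the 10 arrays. High IOP replicate 1 stood apart: for Gapdh, the signal of the 3' control probe set over that of the 5' one was 2.07, against 1.53 to 1.73 on the other arrays, and its mean correlation with the other arrays was 0.974, against 0.986 or more. All samples had an RNA integrity number above 9.1 per the labels. Markers of the tissue were present: the 8 astrocyte markers summed to 54250 to 60898 in high IOP and 55559 to 60350 in control arrays, and none of the 8 had a mean signal under 100. The 6 oligodendrocyte markers measured (of 8) summed to 37838 to 53652 in high IOP and 45667 to 58388 in control arrays. Nothing in the labels says how cleanly neighbouring eye tissue was removed, and the sum of 7 photoreceptor markers ranged from 931 to 8275 in high IOP and from 534 to 7876 in control arrays.

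The heavy chain genes were measured by 13 probe sets, 4 annotated to H2-K1 and 9 to H2-D1. Of these, 11 carry the suffix _x_at, by which the manufacturer marks probe sets with probes shared by transcripts of several genes. A further 3 probe sets are annotated to several class I genes and were not counted as members: 1424948_x_at to H2-K1 and H2-D1, 1451593_at to H2-Q5 and H2-K1, and 1422348_at to H2-D1, H2-Q2 and Gm38417. The signal of the heavy chain probe sets is therefore read here as class I heavy chain RNA, not as 1 gene. Both genes lie on chromosome 17. Bases upstream of their annotated starts are shown as a description. The brightest probe sets of these genes ran closely together over the arrays, but they can share probes. Whether the upstream bases have a part in that was not tested. Sequences are from RefSeq, build GRCm38.p6, in the gene's own direction, and capitals mark matches to the motifs named after them.

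H2-K1 (chr17:34000348-34000597, minus strand): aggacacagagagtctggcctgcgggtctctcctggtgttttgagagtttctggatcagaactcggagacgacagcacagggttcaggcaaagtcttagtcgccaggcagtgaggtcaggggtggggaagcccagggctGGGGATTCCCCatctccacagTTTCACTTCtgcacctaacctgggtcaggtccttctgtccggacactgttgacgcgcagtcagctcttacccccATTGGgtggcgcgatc
H2-D1 (chr17:35262844-35263093, plus strand): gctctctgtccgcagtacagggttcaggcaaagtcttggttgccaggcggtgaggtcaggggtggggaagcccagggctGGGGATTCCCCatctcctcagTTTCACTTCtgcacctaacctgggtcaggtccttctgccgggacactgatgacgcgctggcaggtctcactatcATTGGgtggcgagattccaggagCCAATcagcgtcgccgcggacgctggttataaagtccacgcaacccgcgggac

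A global alignment of both windows matched 170 of 190 aligned bases (89.5%). Bases set against gaps in these windows of 250 bases were not counted. Each window holds the kappaB motif, which matched on both strands as 2 overlapping copies. Each also holds the interferon regulatory factor element GAANNGAAA on the minus strand (TTTCACTTC as printed). A CCAAT box (CCAAT, or ATTGG for the minus strand) lies in each, and H2-D1 holds another. A further annotated H2-K1 start, whose window also holds another CCAAT box, is not printed. The kappaB motif was found in 3.9% of 32851 mouse windows of 250 bases upstream of a start, GAANNGAAA in 6.31% and CCAAT in 33.8%, on either strand. These motifs were picked after the sequences had been read, and a match is a run of letters, not a shown binding site.

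H2-K1 on its brightest probe set, 1451931_x_at, had signals of 5127, 5400, 4583, 5530 and 5160 in high IOP replicates 1 to 5, against 6025, 4744, 6314, 5336 and 5749 in control replicates 1 to 5. The highest values were those of control replicates 3 and 1, and the lowest those of high IOP replicate 3 and control replicate 2. Its mean was 5160 ± 363 in high IOP and 5634 ± 614 in control tissue (SD, n = 5 each), a log2 fold change of -0.12 (95% interval -0.33 to 0.09, limma adjusted p = 0.849). H2-D1, on 1425545_x_at, gave 6408, 6242, 5598, 6899 and 6370 in high IOP replicates 1 to 5, against 7354, 5929, 7720, 6305 and 6791 in control replicates 1 to 5. The order of the arrays was nearly that of H2-K1, with control replicates 3 and 1 again highest. The log2 fold change of H2-D1 was -0.11, with an interval from -0.32 to 0.10 (limma adjusted p = 0.849).

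Over the 10 arrays the brightest H2-K1 probe set followed the bright H2-D1 probe sets more closely than it followed the other H2-K1 probe sets. Its Pearson correlation was 0.96 with 1425545_x_at and 1451784_x_at of H2-D1 and 0.93 with 1451683_x_at, but 0.54 and 0.43 with 1425336_x_at and 1427746_x_at of H2-K1. High IOP replicate 1 made most of that gap: without it the last 2 correlations were 0.81 and 0.73. The probe set annotated to both genes, 1424948_x_at, followed 1427746_x_at of H2-K1 at 0.997. These correlations describe 10 arrays and probe sets that can share probes, and no test of the difference between them was run.

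In high IOP replicate 1 the probe sets of H2-K1 disagreed. On 1427746_x_at the signals were 870, 1885, 2104, 2278 and 2042 in high IOP replicates 1 to 5, against 2758, 1868, 2405, 2240 and 2597 in control replicates 1 to 5. The first of these arrays lay far below the other 9, while on 1451931_x_at it lay among them. The ratio of 1451931_x_at to 1427746_x_at was 5.89 in that array and 2.18 to 2.86 in the other 9. On 1425336_x_at its signal was 2109, against 3765 to 4323 in the other high IOP arrays. The log2 fold changes of 1425336_x_at and 1427746_x_at were -0.30 and -0.43 (limma adjusted p over all probe sets = 0.837 for each), and without high IOP replicate 1 they were -0.12 and -0.18.

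Among all 24 probe sets of the 8 genes the limma fit over all probe sets called 0, where 0% of all probe sets were called, and 0 at an unadjusted p under 0.05, against 4.44% of all probe sets. The lowest p, 0.0709, was that of 1426324_at, 1 of the 2 H2-D1 probe sets without the _x_at suffix. It had 740, 801, 612, 793 and 828 in high IOP replicates 1 to 5, against 1120, 746, 1250, 748 and 915 in control replicates 1 to 5. Control replicates 3 and 1 were again the highest arrays, and the log2 fold change was -0.31 (interval -0.65 to 0.03, limma adjusted p = 0.837). Of the 24 log2 fold changes 20 were below 0, as were 54.7% of those of all probe sets, and 8 of the 24 probe sets had a mean signal under 100, where the 16 added before the log shrinks differences. Of the other 16, 15 were below 0, and the exception was the Tapbp probe set 1450378_at at 0.04.

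**Figure D2:**
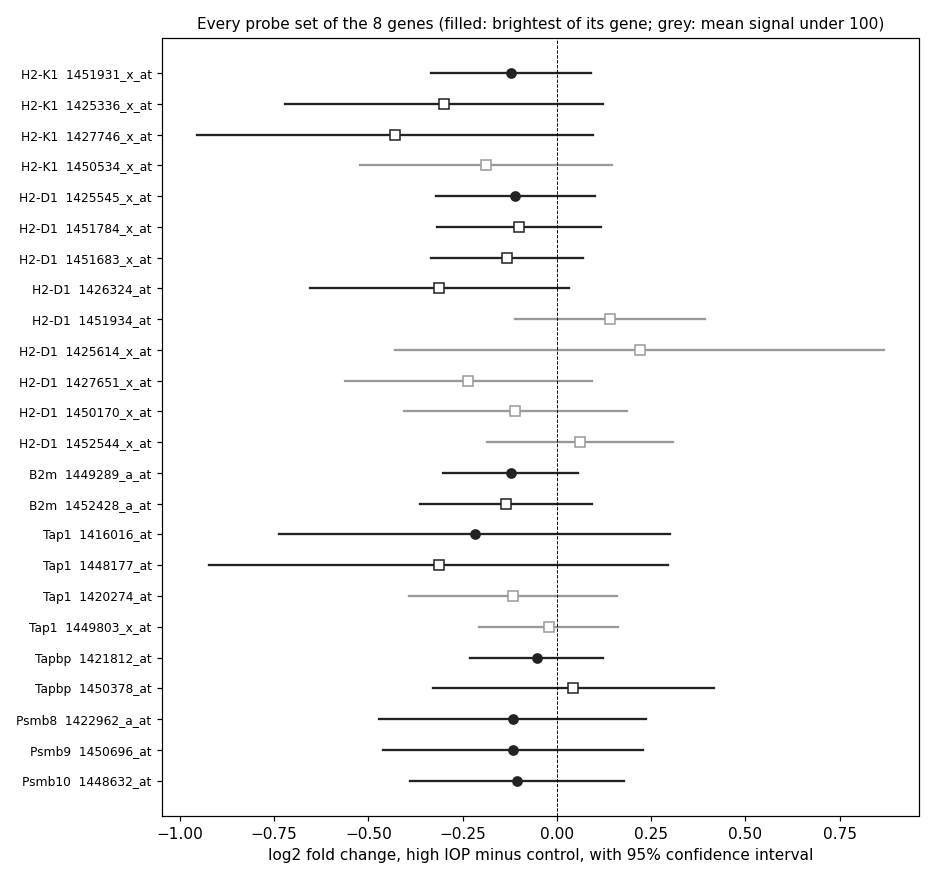
Log2 fold change (high IOP minus control) of each of the 24 probe sets with its 95% confidence interval from the limma fit over all probe sets. Filled circles are the brightest probe set of a gene, open squares the others, and grey marks a mean signal under 100; every interval includes 0.

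B2m, the light chain that all classical class I molecules share, was bright and even across the arrays. It lies on chromosome 2, outside the MHC, and its upstream window is shown for comparison with those of the heavy chains.

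B2m (chr2:122147437-122147686, plus strand): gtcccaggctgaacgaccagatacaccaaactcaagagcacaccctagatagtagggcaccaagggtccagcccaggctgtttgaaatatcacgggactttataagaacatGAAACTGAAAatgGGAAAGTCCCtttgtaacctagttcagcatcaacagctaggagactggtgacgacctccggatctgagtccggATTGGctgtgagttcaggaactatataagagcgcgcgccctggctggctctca

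The window holds the interferon-stimulated response element, GAAA repeated after 2 bases of any kind, which 2.98% of all windows hold on either strand, 139 bases upstream of the start, then a kappaB motif, 3.9% as above, and a CCAAT box, both on the minus strand. The signals of 1449289_a_at were 9814, 11551, 11336, 12190 and 11485 in high IOP replicates 1 to 5, against 13015, 11677, 12470, 11649 and 12459 in control replicates 1 to 5. High IOP replicate 1 was the lowest array, and 4 of the 5 high IOP arrays lay below the lowest control array. The mean was 11275 ± 880 in high IOP and 12254 ± 585 in control tissue (SD, n = 5 each), a log2 fold change of -0.12 (interval -0.30 to 0.05, limma adjusted p = 0.849). Without high IOP replicate 1 it was -0.07. The other probe set, 1452428_a_at, had -0.14, and -0.05 without the same array. Signals of B2m and Tapbp lie in the upper part of a range that ends at 20168, and a compression of differences near that end was not tested.

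Tap1 and Tapbp act between proteasome and heavy chain. Tap1 and Psmb9 lie head to head on chromosome 17, their annotated starts 226 bases apart, so that the bases between the starts are upstream of both. These are shown in the direction of Tap1.

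Tap1 to Psmb9 (chr17:34187331-34187555, plus strand): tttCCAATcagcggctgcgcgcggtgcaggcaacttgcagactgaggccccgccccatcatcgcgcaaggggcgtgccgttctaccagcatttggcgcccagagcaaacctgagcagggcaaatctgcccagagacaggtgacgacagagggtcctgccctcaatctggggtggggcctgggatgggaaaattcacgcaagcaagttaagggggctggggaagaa

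Of the 5 motifs searched, the CCAAT box was the one found between these starts, which says nothing about factors that bind other letters or elsewhere. The remaining motif, the gamma-activated site TTCNNNGAA (7.02% of windows), was found in the Psmb8 window as TTCCCAGAA, 97 bases upstream of the start. Psmb10 lies on chromosome 8 and its window held none of the 5.

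Tap1 had the widest spread of the 8 genes. Its brightest probe set, 1416016_at, gave 2123, 1266, 906, 1096 and 1041 in high IOP replicates 1 to 5, against 1641, 1109, 1776, 1735 and 1066 in control replicates 1 to 5. The arrays fell into 4 high ones, high IOP replicate 1 and control replicates 1, 3 and 4, and 6 low ones. Its mean was 1286 ± 485 in high IOP and 1466 ± 349 in control tissue (SD, n = 5 each). The log2 fold change was -0.22, with an interval from -0.74 to 0.30 (limma adjusted p = 0.852). It stood at -0.41 without high IOP replicate 1, where the interval, -0.82 to -0.01, did not include 0 (limma unadjusted p = 0.0447, adjusted p = 1.00), and at -0.11 without high IOP replicate 3. Without control replicates 3 or 4 it stood at -0.14 and -0.15.

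A further Tap1 probe set went the other way in 1 array. On 1448177_at the signals were 57.1, 147, 222, 170 and 191 in high IOP replicates 1 to 5, against 196, 162, 229, 193 and 152 in control replicates 1 to 5. High IOP replicate 1 was thus the highest of the 10 arrays on 1416016_at and the lowest on 1448177_at, and the ratio of both was 37.2 there, against 4.09 to 8.97 in the other 9. In that array, which also had the highest 3' to 5' Gapdh ratio, 1416016_at of Tap1 and 1427746_x_at of H2-K1 therefore moved in opposite directions from the other arrays, and the part of RNA quality or labelling in this was not tested. The actin ratio of the array, 2.10, was within the range of the others, 1.65 to 2.13. The log2 fold change of 1448177_at was -0.31 (limma adjusted p = 0.837), and -0.03 without high IOP replicate 1.

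**Figure D3:**
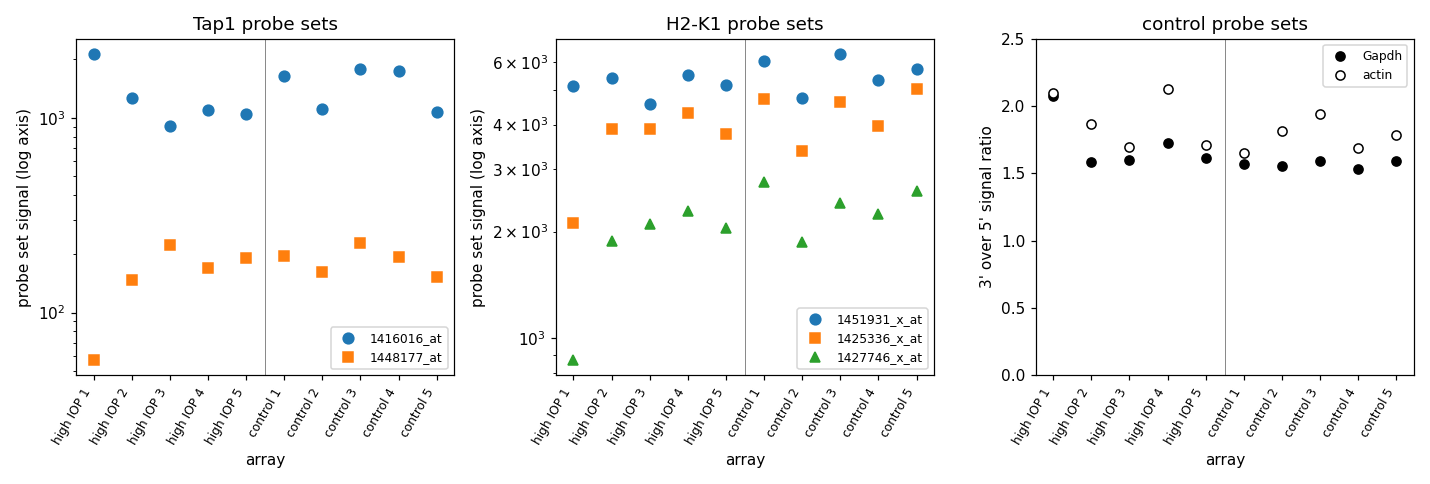
Signals of 2 Tap1 probe sets (left) and 3 H2-K1 probe sets (middle) on each array, on log axes, and the ratio of 3' to 5' control probe sets of Gapdh and actin (right). High IOP replicate 1 has a Tap1 signal of 2123 on 1416016_at and 57.1 on 1448177_at, an H2-K1 signal of 870 on 1427746_x_at, and a Gapdh ratio of 2.07.

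Tapbp had the smallest log2 fold change of the 8 genes. Its signals on 1421812_at were 8578, 9285, 9087, 9759 and 8827 in high IOP replicates 1 to 5, against 9934, 9104, 10435, 8635 and 9216 in control replicates 1 to 5. Control replicates 3 and 1 lay above every high IOP array, the other 3 control arrays lay among them, and the span over all 10 arrays was 1.22-fold. The log2 fold change was -0.05, with an interval from -0.22 to 0.12 (limma adjusted p = 0.884).

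The 3 immunoproteasome genes were each measured by 1 probe set. Psmb8, which encodes the subunit that replaces that of Psmb5, gave 2051, 1592, 1359, 1606 and 1306 in high IOP replicates 1 to 5, against 1856, 1444, 2125, 1895 and 1302 in control replicates 1 to 5. The same 4 arrays as for Tap1 were the highest. Psmb9, whose product takes the place of that of Psmb6, gave 903, 960, 980, 893 and 786 in high IOP replicates 1 to 5, against 1072, 785, 1218, 1218 and 719 in control replicates 1 to 5. Here the 3 highest arrays were control replicates 1, 3 and 4, and high IOP replicate 1 lay in the middle. Psmb10, whose product replaces that of Psmb7, gave 4256, 3715, 3162, 3860 and 3301 in high IOP replicates 1 to 5, against 4037, 3493, 4954, 4082 and 3215 in control replicates 1 to 5. Again the 4 arrays with the most Tap1 signal were the highest.

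Between groups the log2 fold changes of Psmb8, Psmb9 and Psmb10 were -0.12, -0.12 and -0.10, with intervals from -0.47 to 0.24, from -0.46 to 0.23 and from -0.39 to 0.18 (limma adjusted p = 0.877, 0.876 and 0.866). The SD of Psmb9 was 75.8 in high IOP and 237 in control arrays (n = 5 each), and whether the spreads differ was not tested. Leaving out 1 array moved these values: Psmb8 was -0.21 without high IOP replicate 1 and -0.04 without control replicate 3, Psmb9 was -0.23 without control replicate 5 and -0.04 without control replicate 4, and Psmb10 was -0.18 when control replicate 5 was omitted and -0.02 when control replicate 3 was.

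The constitutive subunits varied less over the arrays than the inducible ones that replace them. Psmb5, Psmb6 and Psmb7 spanned 1.25-fold, 1.14-fold and 1.19-fold, against 1.63-fold, 1.69-fold and 1.57-fold for Psmb8, Psmb9 and Psmb10, as described values without a test. Psmb5 averaged 4349 ± 269 in high IOP and 4671 ± 233 in control tissue (SD, n = 5 each), a log2 fold change of -0.10 (limma adjusted p = 0.849). Psmb6 and Psmb7 had log2 fold changes of -0.05 and -0.04 (limma adjusted p = 0.871 and 0.923). The log2 ratio of inducible to constitutive subunit within an array differed between groups, high IOP minus control, by -0.01 for Psmb8 over Psmb5, -0.07 for Psmb9 over Psmb6 and -0.07 for Psmb10 over Psmb7. By two-sided exact permutation tests over 252 splits none of the 3 passed (p = 0.937, 0.698 and 0.714, adjusted p = 0.937 for each). Without high IOP replicate 1 the differences were -0.11, -0.06 and -0.13.

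**Figure D4:**
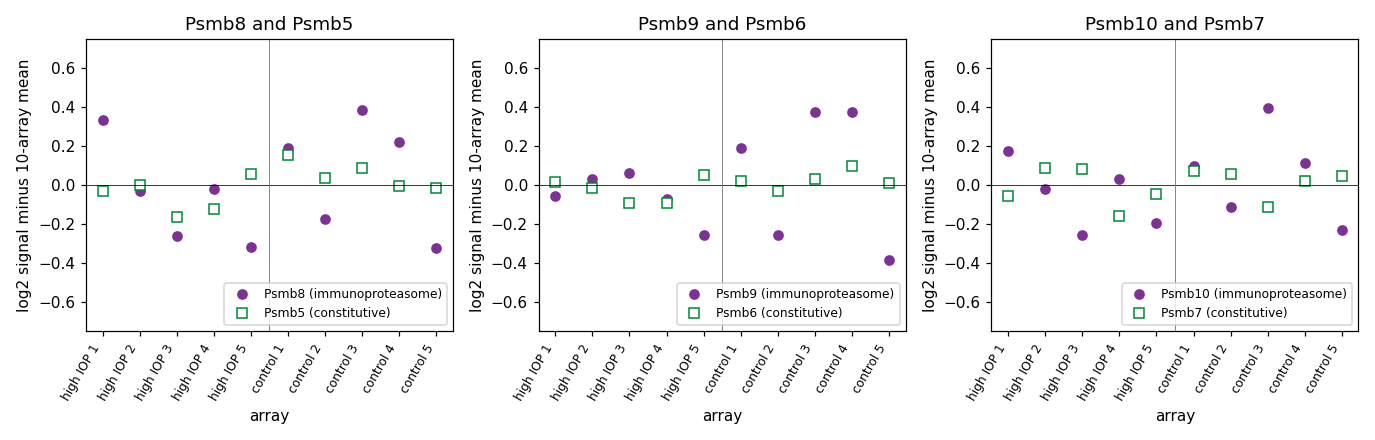
Log2 signal minus its 10-array mean for each inducible subunit (filled circles) and the constitutive subunit it replaces (open squares), by array. The inducible subunits span 1.57-fold to 1.69-fold and the constitutive ones 1.14-fold to 1.25-fold, and both groups overlap.

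The 8 genes did not all vary together. Of 28 pairs, the Pearson correlation over the 10 arrays passed a permutation test adjusted over the pairs in 4. H2-K1 and H2-D1 had r = 0.96 (Spearman rho 0.87, permutation adjusted p = 0.00056 and 0.0183, and r = 0.91 without the 2 arrays farthest from the median). Both probe sets carry the suffix _x_at and can share probes, which was not checked. This test therefore cannot tell 2 genes that vary together from 1 RNA measured by both probe sets. Psmb8 and Psmb10 had r = 0.96 (rho 0.96, permutation adjusted p = 0.00028 and 0.00196, and 0.97 without the 2 farthest arrays). The 4 arrays with the most Tap1 signal were the highest for both, so a difference between 2 sets of arrays enters this value. The other two pairs were those of Tap1 with Psmb8 and Psmb10, but Tap1 fell into the 2 sets of arrays given above, so no pooled value is given for them. By Spearman correlation H2-K1 with B2m (rho 0.83), B2m with Tapbp (0.82) and H2-K1 with Tapbp (0.77) also passed (permutation adjusted p = 0.0262, 0.0266 and 0.0466). By Pearson correlation these did not pass, with r = 0.61, 0.74 and 0.70 (permutation adjusted p = 0.135, 0.057 and 0.0731). B2m with Psmb8 had r = -0.11 (rho 0.15, permutation adjusted p = 0.842 and 0.761), with r = 0.35 without the 2 farthest arrays and 0.47 without high IOP replicate 1.

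**Figure D5:**
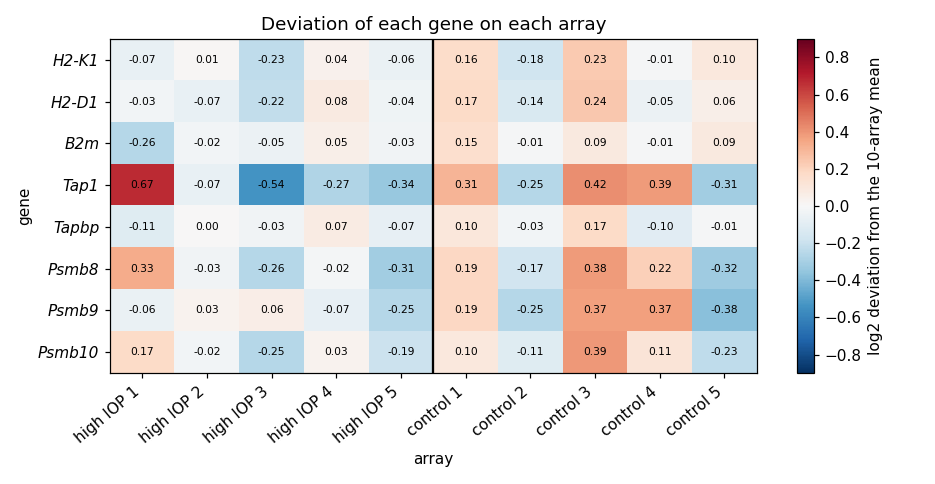
Log2 deviation of each of the 8 genes from its 10-array mean, by array, with high IOP arrays left of control arrays. Control replicate 3 is above the mean for all 8 genes, at 0.09 for B2m to 0.42 for Tap1, and high IOP replicate 1 is at 0.67 for Tap1 and -0.26 for B2m.

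The arrays with high Tap1, Psmb8 and Psmb10 were also those with the most signal of other interferon-induced genes. The mean log2 deviation of 18 measured genes of 22 on that list, none of them among the 8, was 0.63 in high IOP replicate 1 and 0.66, 0.52 and 0.34 in control replicates 1, 3 and 4. In the other 4 high IOP arrays it lay between -0.50 and -0.11, and in control replicates 2 and 5 at -0.26 and -0.44. Because these scores fall into 2 sets, no pooled correlation is given. H2-K1, H2-D1, B2m and Tapbp shared this order in part. Their log2 deviations from the 10-array mean were above 0 in control replicates 1 and 3, at 0.10 to 0.17 and 0.09 to 0.24. They were below 0 in high IOP replicate 1, the array that stood apart, at -0.26 to -0.03, and in control replicate 4 at -0.10 to -0.01.

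Markers of microglia and of T and NK cells were highest in 1 of these 4 arrays each, but not in the 4 together. Microglia and macrophage markers (10 of 11 measured) summed to 32867 to 38862 in high IOP and 34982 to 41149 in control arrays, and markers of T and NK cells (13 of 14 measured) to 1244 to 1728 in high IOP and 1140 to 1732 in control arrays. Microglia markers had their highest sum in control replicate 3, at 41149, with 34552 in high IOP replicate 1 and 36030 and 35312 in control replicates 1 and 4. T and NK cell markers had theirs in control replicate 1, at 1732, with 1600 in high IOP replicate 1 and 1208 and 1140 in control replicates 3 and 4. Of the T and NK cell markers 8 had a mean signal under 100, the dimmest being Gzmb at 21.4. Neutrophil and monocyte markers (4 of 5 measured) summed to 3009 in high IOP replicate 1. In control replicates 1, 3 and 4 they summed to 5887, 1011 and 4158, against 493 to 4185 in the other arrays. Endothelium markers had mean log2 deviations of 0.40, -0.07 and 0.07 in these control arrays. In the arrays outside the 4 they ran from -0.30 to 0.48. The part of these cells in the values of the 4 arrays was not tested. In high IOP replicate 1 the mean log2 deviation was -0.34 for microglia, -0.59 for endothelium and -0.69 for oligodendrocytes, and the part of tissue content in the values of that array was not tested.

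The rest of the pathway held no gene that passed the test over all genes. Of 12 measured genes of 23 other class I heavy chains and class I-like molecules, 4 had log2 fold changes above 0 and 8 below, with a median of -0.05. Of these 12, 7 had a mean signal under 100, where the 16 added before the log shrinks differences, the dimmest being Cd1d2 at 2.15. The lowest p was that of Mr1, which presents vitamin B metabolites, at 355 ± 83.7 in high IOP and 440 ± 35.0 in control tissue (SD, n = 5 each), a log2 fold change of -0.33 (limma adjusted p = 0.849). The other Mr1 probe set stood at -0.11. H2-M3, which presents formylated peptides, stood at -0.23. H2-T3 stood at -0.16 at signals near the 16 added before the log, with its other probe set of opposite sign. Of 11 measured genes of peptide loading and trimming (of 13), 6 were above 0 and 5 below (median 0.02). Among them were the loading complex member Pdia3 at -0.19, the aminopeptidase gene Lap3 at -0.21, and Tap2, the partner of Tap1 in the transporter, at 0.20.

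Genes of the wider proteasome likewise had 0 calls. Of 6 measured genes for activators and assembly factors (of 7), 1 was above 0 and 5 below (median -0.07). Among them were the activator Psme3 at -0.43, Psmg2 at -0.09 and the assembly factor Pomp at -0.07. The 2 other Psme3 probe sets stood at -0.01 and -0.28. Of the 11 other subunits of the core particle 1 was above 0 and 10 below (median -0.04), with Psmb2 at -0.41, Psma5 at -0.10 and Psma2 at -0.10. Psmb2 averaged 1361 ± 518 in high IOP and 1674 ± 112 in control tissue (SD, n = 5 each). Of 23 measured genes of 26 that regulate class I expression or carry interferon signals, 8 were above 0 and 15 below (median -0.08). Of these 23, 3 had a mean signal under 100. The lowest p among the 23 was that of Jak1, a kinase of interferon receptors, at -0.36 (limma adjusted p = 0.849, with an unadjusted value under 0.05). Of its 2 other probe sets 1 had the opposite sign. The feedback inhibitor Socs1 stood at 0.22 and Rfxap, a subunit of a factor that binds MHC promoters, at 0.17.

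Class II genes, which present peptides from outside the cell, mostly had the opposite sign. Of 6 measured genes of 7, 5 were above 0 and 1 below, with a median log2 fold change of 0.27, and 0 passed the test over all genes. Among all genes 52.7% were below 0. The mean log2 deviation of the 6 ran from -0.18 to 0.42 in high IOP and from -0.43 to 0.20 in control arrays, so the groups overlapped. Ciita was dim, with a mean signal of 43.6. H2-DMa, which helps to load class II molecules, averaged 858 ± 103 in high IOP and 732 ± 59.2 in control tissue (SD, n = 5 each), a log2 fold change of 0.22 (limma adjusted p = 0.849, with an unadjusted value under 0.05). The invariant chain gene Cd74 stood at 0.30 and the alpha chain gene H2-Aa at 0.40. Whether class I and class II genes differ in their change was not tested. The 18 interferon-induced genes were all below 0 (median -0.24, 0 called), with Cxcl10 at -0.89, Ifit2 at -0.49 and Gbp2 at -0.40. Cxcl10 had a limma adjusted p = 0.849, with an unadjusted value under 0.05.

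Genes outside the 8 were ranked by how closely they followed the mean log2 deviation of the 8 over the 10 arrays, among 9226 genes with a mean signal of at least 100. The first was Gbp2, an interferon-induced guanylate-binding protein (Pearson r = 0.91), and then Alkbh4 (0.89), the interferon-induced GTPase gene Igtp (0.88), the exonuclease gene Isg20 (0.87), Ddb2 (0.87), which acts in DNA repair, and Lgals9 (0.87), the gene of galectin-9. Parp12 and Lin37 (0.85 each), Slfn8 and the oligoadenylate synthetase gene Oas1a (0.84 each) followed. When group means were removed, 6 of these 10 were still among the first 10, and without high IOP replicate 1 also 6. Lgals9 averaged 1328 ± 167 in high IOP and 2085 ± 634 in control tissue (SD, n = 5 each), a log2 fold change of -0.60 (limma adjusted p = 0.849, with an unadjusted value under 0.05). The deviations were not scaled, so genes that spread widely, such as Tap1, weighed more in their mean than Tapbp or B2m. These values are a ranking over 10 arrays and carry no test.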

How the data were processed

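The values deposited are the intensity of 22690 probe sets on 10 arrays, not logged. Per the labels' protocols, RNA was amplified from 30 ng and biotin-labelled. How probes were summarised and arrays scaled is not stated by the labels or the table. No detection calls were used, and precision is limited by the number of arrays. Values ran from 0.69 to 20168.

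Signals were put on the scale log2(signal + 16), which understates changes of dim genes. Of 22626 probe sets other than 64 controls, 20380 had 1 gene symbol, 691 several and 1555 were not in the platform annotation. The Entrez identifiers of 20351 were found in RefSeq's GRCm38.p6 gene table and 0 symbols were updated. Each of 12393 genes was represented by its brightest probe set, by the mean of the 10 arrays. Groups were compared with limma 3.58.1 (lmFit, eBayes, R 4.3.3) without covariates, once over genes and once over all probe sets, with Benjamini-Hochberg adjustment. Pools are labelled as biological replicates, and nothing states that same-numbered pools share mice.

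The 8 genes, the lists and the rules were chosen with earlier results of these data known. All 8 genes and their probe sets are named, from each other list up to 3 genes with the smallest p, all 3 replaced subunits, and the 10 genes most like the 8. Genes not on a probe set with 1 symbol were not analysed here. Motifs, subunit ratios and comparisons between probe sets of a gene were added after seeing the data. Sequences of all 8 were found in RefSeq's upstream windows. On simulated data with 12393 genes and 200 changed, the gene test found 44.8% of genes given a log2 change of 0.5. It found 82% of those given 1, and 10.4 unchanged genes were called per run. Noise was drawn independently for each gene, which real arrays need not follow, so these shares may not hold for these data. Python 3.11.15, NumPy 2.4.6, pandas 2.3.3, SciPy 1.17.1, Biopython 1.88 and Matplotlib 3.10.9 were used. Correlations were tested with permutations of the arrays.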

Additional observations from a re-analysis of the deposited data

Results flagged for a closer look

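Each group of 5 arrays was checked for an array far from the others with Dixon's ratio (critical value 0.71), for 17 probe sets of the 8 genes, those shared between class I genes included, with a mean signal of at least 100. Of 34 such groups 3 were past it, where chance gives about 1 in 20, and all 3 were high IOP replicate 1 being low on class I heavy chain probe sets that followed each other. On 1425336_x_at of H2-K1 that array had 2109 and the other 4 high IOP arrays 3765 to 4323, a ratio of 0.807. On 1427746_x_at of H2-K1 it had 870 and the others 1885 to 2278, a ratio of 0.802. On 1424948_x_at, annotated to H2-K1 and H2-D1, it had 680 and the others 1567 to 1917, a ratio of 0.804.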

How the results depend on the processing

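The counts of genes, of the 8 genes and of their 24 probe sets called at a limma adjusted p under 0.05 were 0 under each alternative run: quantile normalization, equal array medians, a pseudocount of 1, a trended robust variance, array weights, a fixed or random replicate block, and omission of single arrays or of both arrays of a number, and for genes also the mean over probe sets and omission of the dimmest genes. The median log2 fold change of the 8 genes, -0.12, ran from -0.17 (without control replicate 2) to -0.05 (without control replicate 3) with 1 array left out, from -0.17 to -0.03 with a replicate number left out, and from -0.13 to -0.08 otherwise, the last with quantile normalization. At an unadjusted limma p under 0.05, B2m under a trended robust variance and Tap1 without high IOP replicate 1 passed, in 2 of 25 alternatives, and 1 of the 24 probe sets passed in 7 of 22. All 8 genes stayed below 0 in each alternative except without replicate 3 of both groups, where Psmb8 stood at 0.013 and Psmb10 at 0.030. Over all omissions Psmb8 ran from -0.21 to 0.013 and Psmb10 from -0.18 to 0.030. With 1 array left out H2-K1 ran from -0.18 to -0.08, H2-D1 from -0.16 to -0.06, B2m from -0.15 to -0.07 and Tapbp from -0.09 to -0.02. Averaging probe sets put H2-K1 at -0.26. Equal replicate numbers gave correlations of the deviations from group means of -0.01, 0.21, -0.08, 0.18 and -0.06, which does not settle whether same-numbered pools share mice. Both groups came from the same 10 mice, and which pools match is not stated. With the number as a replicate block the median was -0.12 with 0 calls. In 2 of 5 high IOP arrays the best correlated control carried the same number.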
